A study of Mus musculus with 12 samples.

Results

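Genes of the cells that wrap blood vessels were followed through whole mouse embryos that were knockout, heterozygous or wild-type for Mfsd12. The 10 genes are Acta2, Tagln, Myh11, Cnn1 and Myl9, which encode parts of the smooth muscle contractile apparatus, Des, which encodes the muscle intermediate filament protein desmin, and Pdgfrb, Cspg4, Rgs5 and Kcnj8, which are used as markers of pericytes. They were chosen by gene symbol, and all 10 were found among the 41079 genes counted. RNA had been measured in 12 embryos from timed matings in which each parent was heterozygous for Mfsd12, at 10.0 to 11.0 days post-fertilization. The product of Mfsd12 sits in the membrane of lysosomes and of the pigment organelles, melanosomes. The groups were 4 Mfsd12 knockout, 4 Mfsd12 heterozygous and 4 wild-type embryos, untreated as far as the labels say. The labels give no strain, no allele design and no age per embryo, and each library was made from 1 whole embryo, so every value averages over all tissues. In such bulk samples fewer cells of a type and less RNA per cell cannot be told apart. The series title names reduced thiols of lysosomes and embryonic development, and the question here is how the vessel wall genes differed with the loss of Mfsd12.

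Smooth muscle cells of arteries and pericytes of capillaries are together called mural cells. Endothelial cells recruit them by releasing platelet-derived growth factor B, which binds the receptor encoded by Pdgfrb. Once at the vessel, smooth muscle cells switch on contractile genes through serum response factor, a transcription factor that binds CArG boxes in promoters together with cofactors such as myocardin. At midgestation this vessel wall is just forming, and several of its contractile genes, Acta2 and Tagln among them, are also switched on for a time in the embryonic heart.

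The RefSeq promoter table, which uses build GRCm38.p6, was matched for 7 of the 10 genes, and promoters of Tagln, Myh11 and Pdgfrb were not analysed here. Each entry spans 250 bases before to 50 bases after the start site. The 250 bases before the start site are shown for Myl9 (chr2:156775214-156775463, plus strand) and Acta2 (chr19:34255374-34255623, minus strand), because these were the members with a CArG box or a near match to one. They are also shown for Kcnj8 (chr6:142571615-142571864, minus strand) and Rgs5 (chr1:169655251-169655500, plus strand), because these members differed between embryos grouped by the number that starts their title, described further on. Capitals mark CArG boxes, with at most 1 G or C allowed in the core.
Myl9: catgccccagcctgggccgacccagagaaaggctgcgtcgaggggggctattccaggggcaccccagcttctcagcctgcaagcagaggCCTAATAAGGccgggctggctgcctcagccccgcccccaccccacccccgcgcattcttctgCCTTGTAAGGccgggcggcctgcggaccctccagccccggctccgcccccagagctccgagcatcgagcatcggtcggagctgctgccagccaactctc
Acta2: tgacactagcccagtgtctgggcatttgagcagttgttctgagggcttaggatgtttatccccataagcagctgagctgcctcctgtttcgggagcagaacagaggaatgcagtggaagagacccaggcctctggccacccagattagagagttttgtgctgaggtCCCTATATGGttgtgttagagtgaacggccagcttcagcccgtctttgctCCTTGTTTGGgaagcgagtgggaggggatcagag
Kcnj8: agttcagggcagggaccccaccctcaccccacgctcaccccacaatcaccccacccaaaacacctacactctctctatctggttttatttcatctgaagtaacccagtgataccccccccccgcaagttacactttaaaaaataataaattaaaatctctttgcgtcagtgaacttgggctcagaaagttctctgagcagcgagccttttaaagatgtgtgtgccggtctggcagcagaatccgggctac
Rgs5: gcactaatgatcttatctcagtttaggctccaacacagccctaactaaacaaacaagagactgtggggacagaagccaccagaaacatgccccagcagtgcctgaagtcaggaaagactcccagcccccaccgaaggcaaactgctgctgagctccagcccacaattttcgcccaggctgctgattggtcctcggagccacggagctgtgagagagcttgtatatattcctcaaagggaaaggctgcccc
In Myl9 a full CArG box, CCTAATAAGG, began at position -161 from the start site, and a near match with 1 G in its core, CCTTGTAAGG, began at -99. Acta2 held near matches at -84 (CCCTATATGG) and at -34 (CCTTGTTTGG). Among all 32851 promoters of that length in the table, 1.63% held a full CArG box and 8.5% a near match. The other motifs searched, on both strands, were CATTCC, the core of TEAD sites, TGGGAA, the core of RBPJ sites of the Notch pathway, and GGGCGG, the GC box. CATTCC lay at -146 in Acta2 and occurred in 14.7% of all promoters. TGGGAA lay at -27 in Acta2, where it overlaps the near match at -34, and at position 1 in Kcnj8, and occurred in 25.6% of promoters. GGGCGG was found 3 times in Myl9 and 2 times each in Des and Cspg4, and occurred in 35.7% of promoters. Cnn1 and Rgs5 held none of these letters in this window.

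Libraries held 53133084 to 67977990 counted reads. Levels below are given in CPM, reads relative to the scaled library total, to compare embryos, and in TPM, which also corrects for gene length, to compare genes. Embryos are numbered within a genotype in deposition order. Mfsd12 itself (chr10:81193325-81202059, plus strand, GRCm39) lay between 2.31 and 3.57 CPM in the knockout and between 9.38 and 16.2 CPM in the wild type. One library, labelled heterozygous 2, had an Mfsd12 level inside the knockout range. It had 2.58 CPM, from 121.5 counted reads, where the other 3 heterozygous embryos had 5.91 to 8.84 CPM. Whether its label is wrong cannot be told from this 1 gene. The members' counts and medians in comparisons with heterozygous embryos are therefore also given without it. The library of knockout embryo 3 stood apart in another way: its 8 yolk sac endoderm markers summed to 4582 CPM, against 61.1 to 692 CPM in the other 11 embryos. The sexes were uneven: the Y-linked gene Ddx3y stood at 44.8 CPM or more in 3 of 4 wild-type and 3 of 4 knockout embryos and at 0.0339 CPM or less in all heterozygous ones. Xist, the RNA of the inactive X chromosome, served as a covariate for sex in 1 alternative. Each embryo title also starts with a number (4, 4.1b, 14, 15 or 18) whose meaning is not stated. The numbers 4 and 18 each cover 1 knockout, 1 heterozygous and 2 wild-type embryos.

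Per length, Myl9 was the most abundant of the 10 genes and Myh11 the least. The mean level over the 12 embryos was 256 ± 71.8 TPM (SD, n = 12) for Myl9, 136 ± 44.3 TPM for Acta2, 59.7 ± 27.3 TPM for Tagln and 37.1 ± 10.8 TPM for Pdgfrb. Next in order were Des with 24.7 ± 9.22 TPM, Cnn1 with 12.7 ± 3.82 TPM, Rgs5 with 10.5 ± 2.27 TPM and Kcnj8 with 2.15 ± 1.61 TPM. Cspg4, with 1.14 ± 0.532 TPM, and Myh11, with 0.522 ± 0.242 TPM, closed the order. Neighbours in this order whose ranges over embryos overlapped were Myl9 and Acta2, Acta2 and Tagln, Tagln and Pdgfrb, Pdgfrb and Des, Des and Cnn1, Cnn1 and Rgs5, Kcnj8 and Cspg4, and Cspg4 and Myh11. Only Rgs5 and Kcnj8 were separate, with a lowest Rgs5 level of 7.72 TPM above a highest Kcnj8 level of 4.6 TPM. Myh11 encodes the smooth muscle myosin heavy chain, a marker of mature smooth muscle, and had only 23.5 to 191 counted reads per embryo.

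**Figure D1:**
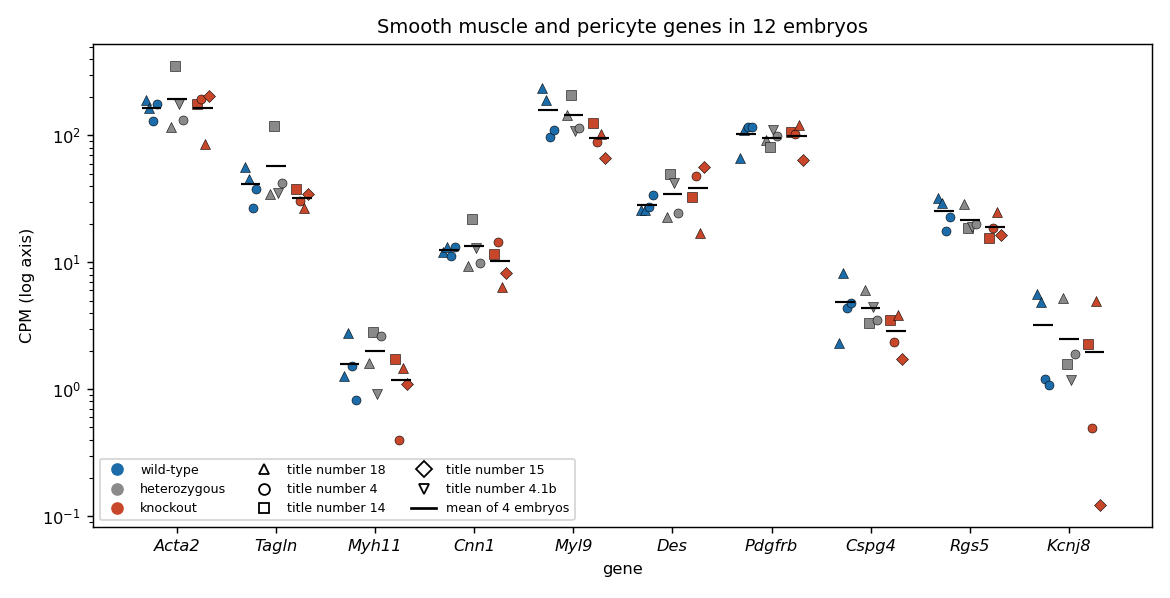
CPM (log axis) of the 10 genes in each of the 12 embryos, coloured by genotype and shaped by the number that starts the embryo title; each bar is the mean of the 4 embryos of a genotype. The genotypes overlap for every gene, and the triangles of title number 18 sit above all other symbols for Kcnj8.

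No member differed between genotypes after adjustment over all genes. With edgeR's quasi-likelihood test and Benjamini-Hochberg adjustment over the 20771 genes tested, 0 of 10 members passed an adjusted p of 0.05 between knockout and wild-type embryos, as did 0% of all genes. DESeq2 called 122 genes and limma voom 0 in this comparison, none of them a member. At an unadjusted p under 0.05 stood 1 of 10 members, Myl9, beside 8.33% of all genes. That count was 4 without knockout embryo 3, 0 without knockout embryo 2, knockout embryo 4 or wild-type embryo 2, and 2 without wild-type embryo 3 and with DESeq2, no count filter, the title number as a block or the Xist covariate. The genotypes overlapped for all 10 members, while 3.43% of all genes had groups that did not overlap. Estimates were lower in knockout embryos for 9 of 10 members, with a median log2 fold change of -0.40 against 0.01 over all genes. Over all genes 51.3% of estimates were higher. The 9 include Acta2 at -0.003, whose sign turned in several alternatives, and the count was 7 to 9 without 1 embryo. Knockout embryos 1 and 4 carry title numbers 14 and 15, which no wild-type embryo carries, so genotype and title number were partly mixed. Estimates of some other tissue markers also shifted, though 0 of them passed the adjusted threshold by edgeR. All 8 red blood cell markers had lower estimates in knockout embryos (median -1.76), 7 of them with an unadjusted p under 0.05 by edgeR. For 5 of the 8, all knockout embryos lay below all wild-type embryos. Their sums were 4924 to 17801 CPM in knockout and 16903 to 84018 CPM in wild-type embryos, overlapping ranges. All 8 yolk sac endoderm markers had higher estimates (median 3.76), with a sum of 4582 CPM in knockout embryo 3 and 79.9 to 103 CPM in the other knockout embryos. Cardiac, endothelial and mesenchyme markers had medians of 0.01, 0.02 and -0.03. Of 9 skeletal muscle markers 7 had lower estimates in knockout embryos (median -0.72). Stage markers moved too, with 7 of 8 genes known to be higher at later stages lower in estimate (median -0.74) and 7 of 8 known to be lower at later stages higher (median 1.31), although 0 of these genes passed by edgeR and 4 of each 8 had an unadjusted p under 0.05 in that direction. A stage index made from these 16 genes was -2.91 to 0.33 in knockout and -0.26 to 1.85 in wild-type embryos, so the ranges overlapped. The part of these markers in the members' values was not tested.

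Among the contractile genes, Myl9, the regulatory light chain of smooth muscle and non-muscle myosin (chr2:156617373-156623578, plus strand, GRCm39), came closest to a difference. Its levels were 236, 192, 98.1 and 111 CPM in wild-type embryos 1 to 4, 144, 207, 109 and 115 CPM in heterozygous embryos and 126, 88.6, 103 and 66.3 CPM in knockout embryos. The highest wild-type values belonged to the 2 embryos of title number 18, and the other 2 wild-type embryos lay within the knockout range. The log2 fold change between knockout and wild-type embryos was -0.73 ± 0.30 (SE), with an unadjusted p of 0.0294, an adjusted p of 0.586 by edgeR and an exact two-sided permutation p of 0.171. Without wild-type embryo 1 it was -0.48, and limma voom with sample weights gave -0.21. Within title number 4 the knockout embryo was 0.23 lower on the log2 scale than the mean of its wild-type embryos, and within title number 18 it was 1.04 lower, with 1 knockout embryo in each.

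Acta2, smooth muscle alpha-actin (chr19:34217736-34232985, minus strand, GRCm39), had nearly equal means in knockout and wild-type embryos. Wild-type embryos 1 to 4 had 189.9, 165, 129 and 178 CPM, heterozygous embryos 117, 353, 176 and 132 CPM, and knockout embryos 177, 194, 85.1 and 205 CPM. The library labelled heterozygous 2 was the highest of all 12 and knockout embryo 3 the lowest. The means of 165 ± 54.7 CPM (knockout) and 166 ± 26.4 CPM (wild type) gave a log2 fold change whose 95% interval ran from -0.72 to 0.72. Differences inside that interval, in either direction, remain compatible with these values. Blocking by title number moved the estimate to -0.48, and a stage index covariate moved it to -0.61, with adjusted p-values of 0.988 and 0.999.

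Tagln, the actin-binding protein transgelin (chr9:45840926-45847356, minus strand, GRCm39), gave the other member with an unadjusted p under 0.05, between knockout and heterozygous embryos. Wild-type embryos had 56.3, 45.2, 26.8 and 37.9 CPM, heterozygous embryos 34.6, 119, 35.0 and 42.3 CPM, and knockout embryos 37.7, 30.4, 26.8 and 34.5 CPM. The value of 119 CPM in the library labelled heterozygous 2 lay apart from the other 11 embryos, all at or below 56.3 CPM. Knockout against heterozygous embryos gave -0.83 ± 0.36 (SE), unadjusted p = 0.0392 and adjusted p = 0.661 by edgeR, and -0.20 with adjusted p = 0.817 without that library. Against wild-type embryos the log2 fold change was -0.36 ± 0.36.

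The Tagln values are not independent of a neighbour. Tagln shares 1361 of its 1586 exonic bases with Pcsk7, a proprotein convertase gene on the opposite strand (chr9:45817745-45843405, GRCm39), and the counting did not use strand and split such reads between genes. Reads of the 2 genes therefore cannot be told apart over that stretch, and 7 of 12 embryos held a fractional Tagln count. Pcsk7 had 84.6, 74.2, 57.6 and 69.6 CPM in wild-type, 61.7, 140.5, 66.4 and 69.98 CPM in heterozygous and 65.8, 61.8, 57.2 and 58.0 CPM in knockout embryos. Both genes peaked in the library labelled heterozygous 2, and over the 12 embryos Pcsk7 was the gene most like Tagln of 10435 compared (Pearson r = 0.98, Spearman rho = 0.97 of log2 CPM, as a description).

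**Figure D2:**
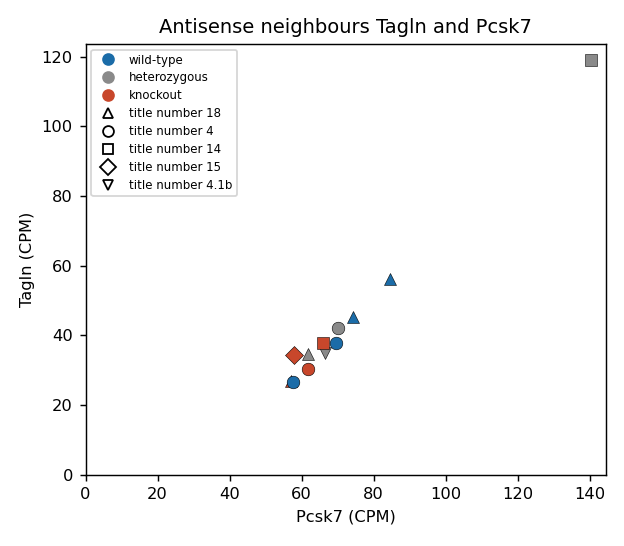
Tagln CPM against Pcsk7 CPM in the 12 embryos, coloured by genotype and shaped by title number. The 2 overlapping genes rise together along 1 line, and the library labelled heterozygous 2 lies far from the rest at 140.5 and 119 CPM.

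Cnn1, the actin-binding calponin of smooth muscle, was steady in wild-type embryos and more spread in the others. Its levels were 12, 13.2, 11.3 and 13.3 CPM in wild-type, 9.32, 21.8, 12.9 and 9.79 CPM in heterozygous and 11.7, 14.5, 6.35 and 8.22 CPM in knockout embryos. The log2 fold change between knockout and wild-type embryos was -0.29 ± 0.30 (SE). Myh11 had 1.27, 2.77, 1.51 and 0.816 CPM in wild-type, 1.62, 2.81, 0.914 and 2.61 CPM in heterozygous and 1.72, 0.398, 1.48 and 1.10 CPM in knockout embryos. These few reads left a wide 95% interval of -1.51 to 0.63 for knockout against wild-type embryos.

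Des (chr1:75336936-75345223, plus strand, GRCm39) was the only member with a higher estimate in knockout than in wild-type embryos. It encodes desmin, which smooth muscle shares with heart and skeletal muscle. Wild-type embryos had 26, 25.6, 27.2 and 33.8 CPM, heterozygous embryos 22.7, 49.4, 42.4 and 24.5 CPM, and knockout embryos 32.8, 47.5, 17 and 56.3 CPM. Knockout embryos thus held both the lowest and the highest value, and the log2 fold change of 0.45 ± 0.33 (SE) had an adjusted p of 0.707 by edgeR and fell to -0.06 with the title number as a block. The antisense gene Gm15179 shares 222 exonic bases with Des but never exceeded 0.138 CPM.

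All 4 pericyte markers had lower estimates in knockout than in wild-type embryos and overlapped between them. The Pdgfrb estimate was 0.10 without knockout embryo 4, which had the lowest stage index of the 12 embryos (-2.91). Cspg4, Rgs5 and Kcnj8 stayed lower without any 1 embryo, at up to -0.40, -0.31 and -0.28. With the stage index as a covariate Pdgfrb gave 0.19 and Kcnj8 0.16. Pdgfrb, the receptor for platelet-derived growth factor B, which mesenchyme also expresses, was the steadiest member. Its levels were 66, 111, 116 and 117 CPM in wild-type, 92.6, 81.8, 110.3 and 99.8 CPM in heterozygous and 107, 102, 121 and 64.1 CPM in knockout embryos. The lowest were wild-type embryo 1 and knockout embryo 4, and the other 10 embryos lay between 81.8 and 121 CPM. The log2 fold change between knockout and wild-type embryos was -0.06, with a 95% interval from -0.52 to 0.40. The SD of its log2 CPM over the 12 embryos was 0.31, the lowest of the 10 genes, at percentile 34.8 among the genes tested.

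Cspg4, the neuron-glial antigen proteoglycan of the pericyte surface (chr9:56772388-56807154, plus strand, GRCm39), had 2.31, 8.20, 4.33 and 4.76 CPM in wild-type, 6.01, 3.32, 4.48 and 3.54 CPM in heterozygous and 3.51, 2.35, 3.85 and 1.72 CPM in knockout embryos. The knockout range lay low, but wild-type embryo 1 fell inside it. Its log2 fold change of -0.78 ± 0.37 (SE) had an unadjusted p of 0.0575 and an adjusted p of 0.611 by edgeR, and was -0.40 without wild-type embryo 2 and -0.18 with the stage index as a covariate. Rgs5, a brake on G protein signalling in pericytes (chr1:169483070-169523367, plus strand, GRCm39), had 32.1, 29.3, 17.7 and 22.8 CPM in wild-type, 28.6, 18.6, 19.1 and 19.9 CPM in heterozygous and 15.6, 18.5, 24.8 and 16.5 CPM in knockout embryos. In each genotype the highest values were those of title number 18, and knockout against wild-type embryos gave -0.43 ± 0.22 (SE) with an adjusted p of 0.619.

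The widest spread was that of Kcnj8, the pore subunit of an ATP-sensitive potassium channel of pericytes and vascular smooth muscle (chr6:142510563-142517340, minus strand, GRCm39). Wild-type embryos had 5.63, 4.85, 1.21 and 1.08 CPM, heterozygous embryos 5.19, 1.58, 1.19 and 1.90 CPM, and knockout embryos 2.27, 0.497, 4.95 and 0.123 CPM. Every genotype held high and low embryos, so the mean difference between knockout and wild-type embryos of -0.70 ± 0.88 (SE, log2) was small beside its error. The SD of Kcnj8 log2 CPM was 1.54, at percentile 97.6 among the genes tested, with 8 to 356 reads per library.

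**Figure D3:**
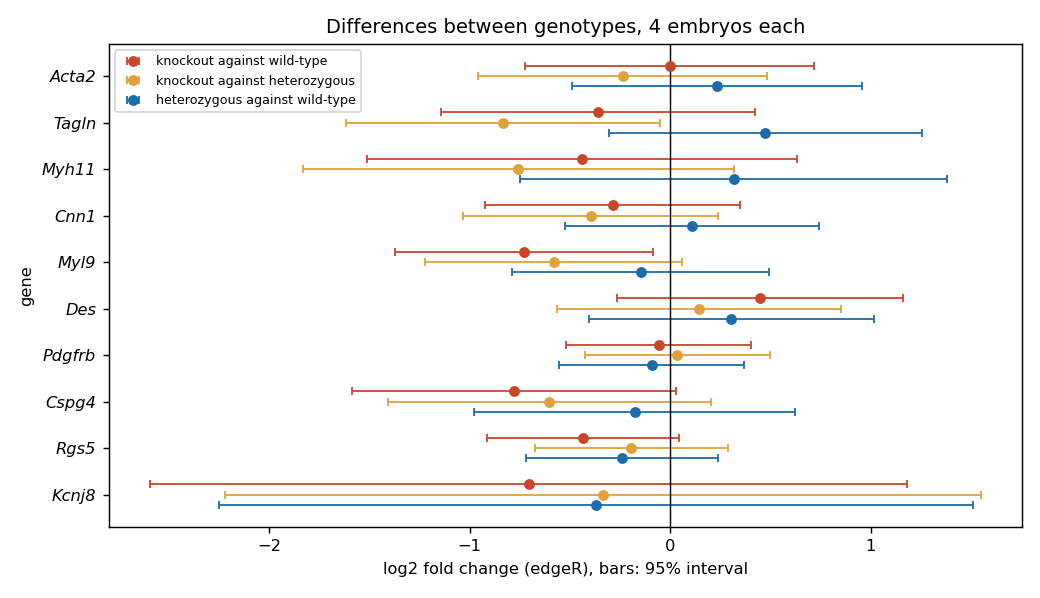
Log2 fold change of each gene for the 3 comparisons of genotypes, 4 embryos each, with 95% intervals from edgeR. Intervals exclude 0 for Myl9 between knockout and wild-type and for Tagln between knockout and heterozygous embryos, before adjustment over all genes; neither passed after it.

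Heterozygous embryos differed no more clearly. Between knockout and heterozygous embryos, 0 of 10 members and 0% of all genes passed the adjusted threshold in edgeR (DESeq2 called 74 genes), 1 of 10 members and 7.4% of all genes had an unadjusted p under 0.05, and no member and 3.44% of all genes had groups that did not overlap. Estimates were lower in knockout embryos for 8 of 10 members, with a median of -0.37. Without the library labelled heterozygous 2 the count was again 8, but Acta2 had turned higher (0.22) and Pdgfrb lower (-0.04). The median was then -0.23, and 0 members had an unadjusted p under 0.05 or groups that did not overlap. Between heterozygous and wild-type embryos, 0 of 10 members and 0% of all genes passed (DESeq2 called 4 genes), 0 members and 1.01% of genes had an unadjusted p under 0.05, and no member and 0.876% of genes had groups that did not overlap. Here 5 members had lower and 5 higher estimates, and 8 had lower estimates without the library labelled heterozygous 2, with a median of 0.01 with it and -0.17 without it. Without that library 0 genes in the whole table passed in either comparison, the lists below included. These comparisons share the embryos of a genotype pairwise and are not independent of one another.

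Other genes of the vessel wall gave no call between genotypes either. Of 15 further contractile and cytoskeletal genes of smooth muscle, 14 transcription factors and cofactors, 12 further pericyte genes that were tested and 17 genes of mural cell recruitment, 0 passed the adjusted threshold in any of the 3 comparisons by edgeR. At an unadjusted p under 0.05 between knockout and wild-type embryos stood 2 contractile genes, 1 pericyte gene (all lower), and 1 transcription factor and 2 recruitment genes (all higher). Over all genes 8.33% had such a p. The contractile genes with the most counted reads were Tpm1 (tropomyosin) at 502 CPM, Cald1 (caldesmon) at 325 CPM, Cnn2 (calponin 2) at 303 CPM and Csrp1 at 142 CPM, as means over the 12 embryos. Their log2 fold changes between knockout and wild-type embryos were -0.20, -0.15, -0.39 and -0.25. Among the regulators, the receptor Notch3 had 89.3 CPM, Srf 61.5 CPM, the cofactor Mrtfb 47.1 CPM and the Notch ligand Jag1 44.3 CPM, with log2 fold changes of 0.08, 0.24, 0.16 and 0.69. Among recruitment genes, Tgfbr1 had 220.4 CPM, Pdgfra 179.9 CPM, Pdgfc 68.5 CPM and the endothelin receptor Ednra 47.0 CPM, with log2 fold changes of 0.12, -0.19, -0.08 and -0.26.

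The embryos did differ by the number that starts their title, and Kcnj8 showed this most clearly among the members. The comparison of number 18 with number 4, 4 embryos each with genotype as a covariate, was chosen after its values were seen, and what the numbers stand for is not given in the sources used here. With edgeR, 2 of 10 members were higher in number 18 after adjustment over 21492 genes, beside 4.75% of all genes, and 0 members were lower, beside 3.1% of all genes. The same 2 members, Kcnj8 and Rgs5, had all 4 embryos of number 18 above all 4 of number 4, as did 9.8% of all genes. The median log2 fold change of the members was 0.33 and that of all genes 0.03.

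Kcnj8 was 4.75-fold higher in number 18. Its 4 embryos had 4.85 to 5.63 CPM (mean 5.16 ± 0.346 SD) and those of number 4 had 0.497 to 1.90 CPM (1.17 ± 0.575), and the 4 embryos of other numbers, at 0.123 to 2.27 CPM, were low as well. Within each genotype the embryos of number 18 were the highest. The log2 fold change was 2.25 ± 0.29 (SE) with an adjusted p of 0.00722 by edgeR. The exact permutation p, which ignored genotype, was 0.0286, the smallest that 4 against 4 allows. The lack of overlap fixes that value, so it adds nothing to it. Adjusted p-values over the alternatives and left-out embryos reached 0.0405 and log2 fold changes ran from 1.93 to 2.53. Without knockout embryo 3, the library with the highest yolk sac signal, the log2 fold change was 1.93. It was also 1.93 without knockout embryo 2, because with genotype as a covariate either fit leaves the other knockout embryo no weight. In the other embryos of number 18 the yolk sac endoderm markers summed to 149, 167 and 692 CPM. In number 4 they summed to 61.1 to 174 CPM. Leaving out knockout embryo 3 therefore does not remove this signal, whose part in the Kcnj8 difference was not tested.

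Rgs5 was 1.45-fold higher in number 18, with 24.8 to 32.1 CPM (28.7 ± 3.01) against 17.7 to 22.8 CPM (19.7 ± 2.26). Its log2 fold change of 0.53 ± 0.13 (SE) had an adjusted p of 0.0432 by edgeR. The call was lost with library totals alone, with a covariate for Xist or for the stage index, and without any 1 of heterozygous embryos 1 and 4 and the 4 wild-type embryos, with adjusted p-values up to 0.14. The log2 fold change was 0.52 with library totals, 0.56 and 0.72 with those covariates and 0.45 to 0.60 without 1 embryo. The estimate was thus not much smaller in any of these. Each title number holds 1 heterozygous and 1 knockout embryo, and genotype is a covariate. Leaving out 1 of them leaves its genotype partner no weight, so such fits do not check single embryos. Myl9, at 169 ± 57.6 CPM in number 18 and 103 ± 11.9 CPM in number 4, gave 0.65 ± 0.17 with an adjusted p of 0.0546 by edgeR. It passed with DESeq2 (0.00797) and voom (0.00265). By edgeR it also passed with library totals (0.0428), no count filter (0.0132), a minimum of 1 CPM (0.0484) and the stage index (0.0474). It did not pass with DESeq2's size factors (0.0562), no genotype covariate (0.0627), the Xist covariate (0.123) or without any 1 wild-type embryo. Without knockout embryo 2 or 3 the log2 fold change was 0.80. The other 7 members did not pass in the main edgeR fit, and their log2 fold changes ran from -0.52 for Des to 0.66 for Myh11. Of these, Cspg4 passed with voom (0.70, adjusted p = 0.0383) and, by edgeR, without wild-type embryo 1 (0.77, adjusted p = 0.0330).

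**Figure D4:**
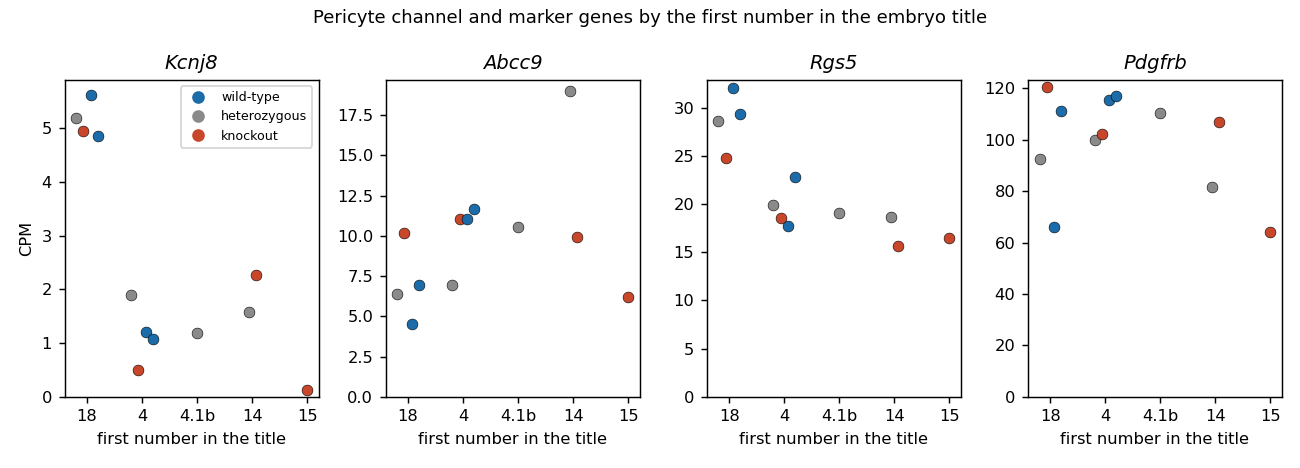
CPM of Kcnj8, its channel partner Abcc9, Rgs5 and Pdgfrb in the 12 embryos, by the number that starts the embryo title and coloured by genotype. All 4 embryos of number 18 lie above the other 8 for Kcnj8 and Rgs5, and this does not hold for Abcc9 or Pdgfrb.

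The gene of the partner subunit of Kcnj8 did not pass. Abcc9, which encodes the regulatory sulfonylurea receptor of the same channel, lies beside Kcnj8 on chromosome 6 (chr6:142533592-142648472, minus strand, GRCm39). Abcc9 had 4.51 to 10.2 CPM in number 18 and 6.94 to 11.7 CPM in number 4, a log2 fold change of -0.56 ± 0.23 (SE) with an adjusted p of 0.143. The ranges of Abcc9 overlapped, and the difference between the 2 genes' changes was not tested.

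Of the 12 further pericyte genes tested, 4 were also higher in number 18 and 0 were lower. The shares over all genes, for this and the lists that follow, are the 4.75% higher and 3.1% lower given above. Kcne4, a regulatory subunit of potassium channels, had 2.70 to 6.81 CPM against 0.0663 to 0.915 CPM, a log2 fold change of 3.14 ± 0.39 (SE, adjusted p = 0.00588, edgeR). Vtn (vitronectin) gave 0.71, Foxf2, a transcription factor of brain pericytes, 0.68, and Cd248 (endosialin) 0.46, with adjusted p-values of 0.0231, 0.0434 and 0.0439. Notch3 and Mcam, the other abundant genes of that list, gave -0.48 and -0.09 and did not pass, and Higd1b had too few reads to be tested. Of the further contractile genes, 1 of 15 was higher: Actg2, the gamma-actin of visceral smooth muscle, at 5.12 ± 1.83 against 2.23 ± 1.27 CPM (log2 fold change 1.38, adjusted p = 0.0288). Of the regulators, 2 of 14 were lower, the zinc finger factor Gata6 with -0.57 and Jag1 with -0.67 (adjusted p = 0.0445 and 0.0332). None of the 17 recruitment genes passed by edgeR, and Pdgfb itself gave 0.08. At an unadjusted p under 0.05 stood 2 higher and 2 lower recruitment genes, and the share of all genes at that threshold was not counted.

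Some markers of other tissues moved with the title number. The cardiac, endothelial and skeletal muscle lists were mixed in direction, and the yolk sac endoderm and red blood cell lists were mostly or wholly higher. Of 13 cardiac markers 3 passed as lower in number 18 (Myh6, Myh7 and Ryr2), and 6 of 13 had higher estimates (median -0.20). Of 9 endothelial markers 3 passed as lower (Cdh5, Kdr and Flt1), and 4 of 9 had higher estimates (median -0.03). Of 9 skeletal muscle markers 2 passed as higher (Myod1 and Tnnt1), and 4 of 9 had lower estimates (median 0.99). Over all genes 52.7% of estimates were higher. Of 8 yolk sac endoderm markers 4 passed as higher, and 7 of 8 had higher estimates (median 2.64). Their sum was 149 to 4582 CPM in number 18 and 61.1 to 174 CPM in number 4, with no marker at 0 in any embryo. All 8 red blood cell markers had higher estimates (median 0.51), and 0 of them passed. Of 8 genes known to be lower at later stages 5 passed as lower in number 18, and 7 of 8 had lower estimates (median -1.09). Of 8 genes known to be higher at later stages 3 passed as higher. In the latter list 4 of 8 estimates were lower in number 18, 2 genes had all 4 embryos of number 18 below all 4 of number 4, and the median was 0.06. The share of all genes with number 18 wholly below number 4 was not counted. The stage index was 0.27 to 1.85 in number 18 and -1.19 to 0.54 in number 4. With that index as a covariate Kcnj8 gave 2.17 with an adjusted p of 0.0359 by edgeR. The index and the title number largely ran together over these embryos, so this fit cannot separate them. The part of stage and of the other markers in the members' differences was not tested.

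**Figure D5:**
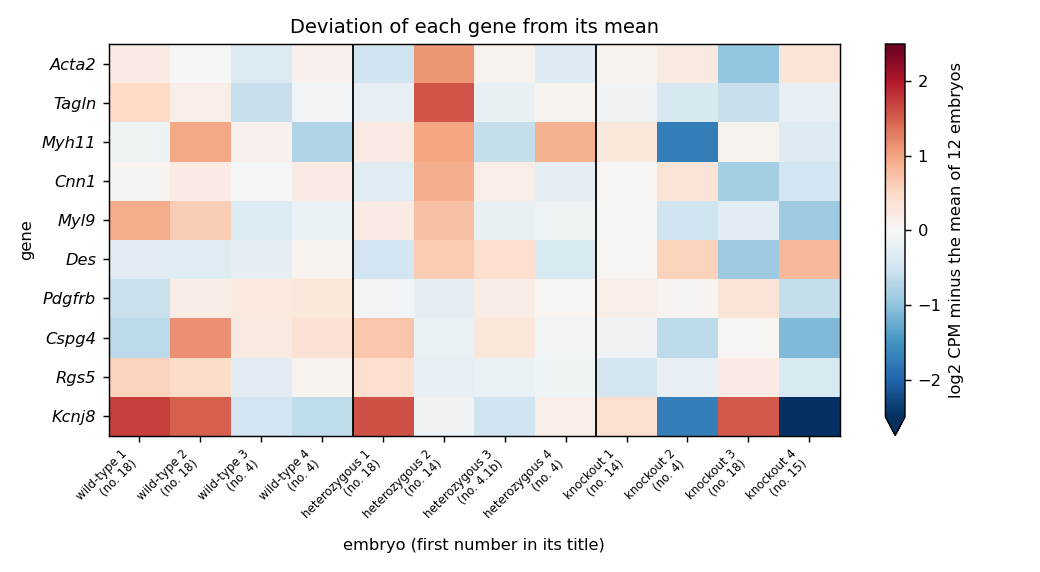
Log2 CPM of each gene minus its mean over the 12 embryos, with embryos ordered by genotype and labelled with their title number. Kcnj8 is above its mean in all 4 embryos of number 18, and Acta2, Tagln, Cnn1 and Des are above theirs in the library labelled heterozygous 2.

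The 10 genes did not move as 1 group over the embryos. Of 45 pairs of members, 6 had a Pearson r above 0.7 over the 12 embryos and 19 a negative r, with a median of 0.16. The closest were Acta2 and Cnn1 (r = 0.82, rho = 0.59) and Acta2 and Des (r = 0.82, rho = 0.87), and the most opposed were Des and Kcnj8 (r = -0.81, rho = -0.80). These correlations are descriptions over embryos that share title numbers and stage. In the library labelled heterozygous 2, Acta2, Tagln, Myh11 and Cnn1 were the highest of the 12 embryos, and Myl9 and Des were each behind 1 other embryo. That library also held the highest sums of cardiac markers (1789 CPM) and of endothelial markers (677 CPM), and the part of these in its contractile gene levels was not tested.

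The genes most like each member over the 12 embryos were taken from the 10435 or 10436 other genes with a mean of at least 10 CPM. Acta2 ran closest to Tubb6, a tubulin gene (r = 0.96, rho = 0.97). Cnn1 ran closest to Acta1 and Tnnt2, which encode skeletal alpha-actin and cardiac troponin T (r = 0.92 and 0.90, rho = 0.81 and 0.76). Des was close to Popdc2, a gene of heart and skeletal muscle (r = 0.91, rho = 0.93), after Eif3j2, Rbpms2, Pak4 and Supv3l1. Myl9 ran closest to Efemp2, an elastic fibre gene (r = 0.97, rho = 0.91), with Tgfb1i1, a focal adhesion gene, also among its closest 5 (r = 0.95, rho = 0.85). Myh11 ran closest to Srp54c (r = 0.87, rho = 0.85).

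Among the pericyte markers, Pdgfrb ran closest to Adgra2, an adhesion receptor of brain vessels (r = 0.97, rho = 0.92). Wild-type embryo 1 and knockout embryo 4, the lowest for Pdgfrb, were also the lowest for Adgra2, at 54.2 and 57.7 CPM. Cspg4 ran closest to Col25a1 (r = 0.90, rho = 0.89) and Rgs5 to Rtkn (r = 0.95, rho = 0.88). Kcnj8 ran closest to Gjb2, a connexin gene (r = 0.99, rho = 0.91), then to Emp1, Csf1r, Fmod and Apod (r = 0.98, 0.98, 0.98 and 0.97). Gjb2 had 60.4 to 78.8 CPM in number 18 and 1.16 to 25.1 CPM in the other 8 embryos, and its mean level per length, 30.2 TPM, was well above the 2.15 TPM of Kcnj8.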

How the data were processed

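Whole-embryo RNA of 12 mouse embryos had been sequenced from 325 ng of total RNA with a stranded mRNA kit and spike-in RNA, per the labels' protocols. The deposited values are estimated counts of reads per gene, with no normalization, in 1 table. Per the file headers, featureCounts 2.0.6 produced them on the RefSeq annotation of GRCm39, with each mate counted, reads of several places or genes added as fractions, and strand not used. The submitters' processing notes also list DRAGEN and Subread. The table had 0 rows of spike-in RNA and 41079 genes, and 17% of its values were not whole.

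Counts were rounded, filtered with filterByExpr (20771 genes for genotypes, 21492 for title numbers) and scaled with TMM. Genotypes were tested with edgeR 4.0.16 (quasi-likelihood, R 4.3.3), using all 12 embryos and a mean per genotype, two-sided, with Benjamini-Hochberg adjustment and a threshold of 0.05. Log2 CPM used a prior count of 2. TPM was computed from the counts and the exonic lengths in the table. Single values were also compared by exact permutation tests, whose smallest p for 4 against 4 is 0.0286. Nothing says that embryos of a group came from separate litters, so p-values measure the spread between these embryos. Alternatives were DESeq2 1.42.0, limma 3.58.1 (voom), other scalings, filters and covariates, and leaving out each embryo. The scripts were tested on simulated data.

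The 10 members and all gene lists were chosen with earlier results of these data known. Named were all members, Mfsd12, and from each list of mural cell genes the 4 with the highest mean CPM and any past the adjusted threshold, and for each member the 5 genes of highest Pearson r among genes with a mean of at least 10 CPM, from which some are printed. Genes of the other tissue lists are named where they passed. Abcc9, Higd1b and Pdgfb were named after their values were seen. The comparison of title numbers and its alternatives were added after seeing the data.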

Additional observations from a re-analysis of the deposited data

Results flagged for a closer look

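Of 30 groups of 4 embryos (10 genes in 3 genotypes), 3 had an embryo far from the other 3, and chance alone gives about 1 in 20 groups. The library labelled heterozygous 2 had 119 CPM of Tagln, where the other heterozygous embryos had 34.6 to 42.3 CPM. Wild-type embryo 1 had 66 CPM of Pdgfrb, where the other wild-type embryos had 111 to 117 CPM. Heterozygous embryo 1, the only heterozygous embryo of title number 18, had 28.6 CPM of Rgs5, where the others had 18.6 to 19.9 CPM.

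For 4 members the single knockout embryo lay on opposite sides of its wild-type embryos in the 2 title numbers, as log2 differences from their mean. Acta2 differed by 0.35 in number 4 and -1.06 in number 18, Cnn1 by 0.25 and -0.99, Des by 0.65 and -0.60, and Pdgfrb by -0.18 and 0.49. With 1 knockout embryo per number these differences between numbers were not tested. The knockout embryo of number 18 is the library with the high yolk sac endoderm signal, whose part in these values was not tested.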

How the results depend on the processing

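In every alternative 0 of the 10 genes passed the adjusted threshold between genotypes. Over all genes, DESeq2 called 122 genes between knockout and wild-type, 74 between knockout and heterozygous and 4 between heterozygous and wild-type embryos, and leaving out 1 embryo gave 0 to 1, 0 to 1 and 0. Title numbers do not state a shared litter or day. With them as a replicate block 2, 0 and 0 genes were called. Left-out embryos gave 0 to 1 member without overlap in each comparison, and 3 to 8 members with a lower estimate in heterozygous than in wild-type embryos. The cause of these moves was not tested.

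Several estimates changed sign, as log2 fold changes, and some of them were not near 0: Kcnj8 (-0.70) and Des (0.45) between knockout and wild-type, and Tagln (0.47) and Myh11 (0.32) between heterozygous and wild-type embryos. Between knockout and wild-type embryos Acta2 gave 0.0052 with DESeq2 and with its size factors, 0.0078 with a minimum of 1 CPM in 4 embryos and 0.010 with only these genotypes. The block gave -0.057 for Des and 0.17 for Pdgfrb, and the stage index covariate -0.22 for Des, 0.19 for Pdgfrb and 0.16 for Kcnj8. Leaving out embryos gave -0.12 to 0.23 for Acta2 and -0.22 to 0.10 for Pdgfrb. Between knockout and heterozygous embryos voom gave 0.13 for Acta2, and the stage index -0.44 for Des, 0.030 for Rgs5 and 0.38 for Kcnj8. Left-out embryos gave -0.39 to 0.22 for Acta2, -0.088 to 0.41 for Des, -0.061 to 0.20 for Pdgfrb and -1.35 to 0.34 for Kcnj8. Between heterozygous and wild-type embryos voom gave -0.14 for Acta2, -0.23 for Cnn1, -0.069 for Des and 0.33 for Kcnj8, the block -0.23, -0.22, -0.080 and 0.18 for the same genes, and the Xist covariate -0.69 for Myh11. Left-out embryos gave -0.22 to 0.40 for Acta2, -0.15 to 0.66 for Tagln, -0.22 to 0.24 for Cnn1, -0.38 to 0.11 for Myl9, -0.41 to 0.19 for Cspg4 and -1.04 to 0.051 for Kcnj8.

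Between title numbers, 1688 genes were called by edgeR, 3840 by DESeq2, 7345 by voom, 1093 with library totals, 2559 with no count filter, 288 with the Xist covariate and 210 to 3910 without 1 embryo. Of the members, voom called 4, the Xist covariate 1 and left-out embryos 1 to 3, and Kcnj8 passed in all of these. As given above, leaving out 1 knockout or heterozygous embryo here also takes the weight from its genotype partner. The stage index gave 0.15 for Acta2, -0.36 for Myh11 and -0.68 for Cspg4, and left-out embryos -0.42 to 0.078 for Acta2. Myh11, with 23.5 reads in 1 embryo, and Kcnj8, with 8, are the members whose values depth limits most.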
